A study of Homo sapiens with 9 samples.

Results

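The genes described here control how HepG2 cells sense sterols and handle the low-density lipoprotein (LDL) receptor. They were chosen by name, as the rows of the deposited FPKM table called SREBF1, SREBF2, SCAP, INSIG1, INSIG2, MYLIP, STARD4 or TMEM97. Of these 8 genes, 7 were rows of the table, out of 22587 genes in all, and INSIG1 was not analysed here. FPKM divide the fragments of a gene by its length and by the sequencing depth, so that levels of different genes can be compared per length, as far as the gene length built into the table holds.

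HepG2, a human cell line that was derived from a liver tumor, was kept here in high-glucose DMEM with 10% fetal bovine serum. RNA was sequenced from 3 libraries of cells with Gln added, 3 of cells deprived of Gln for 12 h and 3 of cells deprived for 24 h, the change of medium falling 24 h after seeding. The time at which the cells with Gln added were collected is not given in the labels. GlutaMAX, a stable dipeptide that supplies Gln, is listed in the labels as the treatment of the cultures with Gln added, whereas the labels' treatment protocol puts it in the Gln-free medium of the deprivation experiment. All 9 libraries come from the same single cell line, and nothing in the labels says that the 3 libraries of a group came from separate cultures, so the p-values measure the spread between these libraries, which may be technical. Both time points of deprivation were compared with the same 3 libraries with Gln added. In RNA from whole cultures, fewer cells of a kind and less RNA per cell cannot be told apart.

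Cells adjust cholesterol by a feedback loop in the endoplasmic reticulum. The membrane-bound precursors of SREBP-1 and SREBP-2, encoded by SREBF1 and SREBF2, are escorted by SCAP to the Golgi when sterols are low, where they are cut and release transcription factors that switch on sterol and fatty acid synthesis. When sterols are plentiful, INSIG proteins hold SCAP back, and oxysterols activate the LXR receptors, which induce MYLIP, the ubiquitin ligase that sends the LDL receptor to degradation. STARD4 carries sterol between membranes in the cytosol, and TMEM97 is the sigma-2 receptor, a membrane protein tied to cholesterol trafficking. STARD4 and TMEM97 are known as sterol-regulated genes. In liver this loop sets both cholesterol synthesis and the uptake of LDL.

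Fragments on genes, recovered from the FPKM steps, ranged from 29621265 to 36261540 per library. All 6 hepatocyte markers examined were expressed, with a sum of 7673 to 8621 FPKM in every library, which matches the liver label. Of the markers of other cell types, PECAM1, VWF and COL1A1 stayed at or below 0.343 FPKM. CD68 and ACTA2 made up nearly all of the summed level of that list, which was 71.2 to 73.2 FPKM with Gln added, 52.0 to 57.8 FPKM at 12 h and 43.0 to 47.7 FPKM at 24 h. The part of these cell type markers in the results was not tested.

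The promoters of the 3 genes that fell most are shown because SREBP and its partner NF-Y act through short motifs close to the start, together with that of MYLIP, which rose. The stretches are the 250 bases before the RefSeq transcript start on GRCh38.p14, written 5′ to 3′ on the strand of the gene, and reach from chr22:41832855-41833104 (plus strand, SREBF2), chr5:111512536-111512785 (minus strand, STARD4), chr17:28318950-28319199 (plus strand, TMEM97) and chr6:16128836-16129085 (plus strand, MYLIP). Capitals mark a sterol response element (TCACNCCAC) or a CCAAT box, the core of an NF-Y site, which reads ATTGG where it lies on the other strand.
SREBF2: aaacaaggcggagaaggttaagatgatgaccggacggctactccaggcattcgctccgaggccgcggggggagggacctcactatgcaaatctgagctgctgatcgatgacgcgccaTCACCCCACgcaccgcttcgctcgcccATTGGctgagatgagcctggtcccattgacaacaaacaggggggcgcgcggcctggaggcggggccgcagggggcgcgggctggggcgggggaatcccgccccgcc
STARD4: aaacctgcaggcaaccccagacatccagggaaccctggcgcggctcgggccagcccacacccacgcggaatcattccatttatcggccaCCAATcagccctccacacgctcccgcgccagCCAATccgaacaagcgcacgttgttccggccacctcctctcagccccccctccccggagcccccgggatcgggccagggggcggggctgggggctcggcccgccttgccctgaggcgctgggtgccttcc
TMEM97: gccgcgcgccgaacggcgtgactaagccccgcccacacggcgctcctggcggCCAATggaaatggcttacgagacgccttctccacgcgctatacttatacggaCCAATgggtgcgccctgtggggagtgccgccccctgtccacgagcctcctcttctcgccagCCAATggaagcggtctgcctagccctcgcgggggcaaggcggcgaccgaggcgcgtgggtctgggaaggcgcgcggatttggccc
MYLIP: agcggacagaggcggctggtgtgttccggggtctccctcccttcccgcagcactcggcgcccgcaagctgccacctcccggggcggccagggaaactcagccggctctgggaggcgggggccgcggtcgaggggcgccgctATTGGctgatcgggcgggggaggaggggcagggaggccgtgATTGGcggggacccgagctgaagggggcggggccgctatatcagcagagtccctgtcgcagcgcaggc

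Within the stretches scanned, SREBF2 was the only one of the 7 genes with a match to the sterol response element. The match lay 133 to 125 bases before its start. SREBF2 also had 1 CCAAT box, on the other strand, 106 to 102 bases before the start. On either strand this 9-letter motif was found in 0.883% of the 35116 promoter stretches of the same length. STARD4 held 2 CCAAT boxes and TMEM97 held 3, at 198 to 194, 146 to 142 and 85 to 81 bases before its start. At least 2 CCAAT boxes were found in 9.53% of all stretches and at least 3 in 2.93%. MYLIP, the gene of the set with the largest rise at 24 h, also held 2, both on the other strand, so that CCAAT boxes were found beside genes that fell and beside a gene that rose. No CCAAT box was found before the scanned starts of SREBF1, SCAP or INSIG2, the last with 2 listed starts. For SREBF1 only 1 start was scanned, so a separate start of its SREBP-1a or SREBP-1c transcripts elsewhere in the gene was not covered. A GC box (GGGCGG), the core of an Sp1 site, was present in all 7 genes and in 42.6% of all stretches. SCAP alone had the E-box CACGTG, 58 to 53 bases before its start, as did 6.35% of all stretches. The motif TGATGNAA, one form of the element bound by ATF4 in amino acid starvation, matched none of the 7 genes and 3.14% of all stretches. A match describes these letters only, and binding was not measured.

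**Figure D1:**
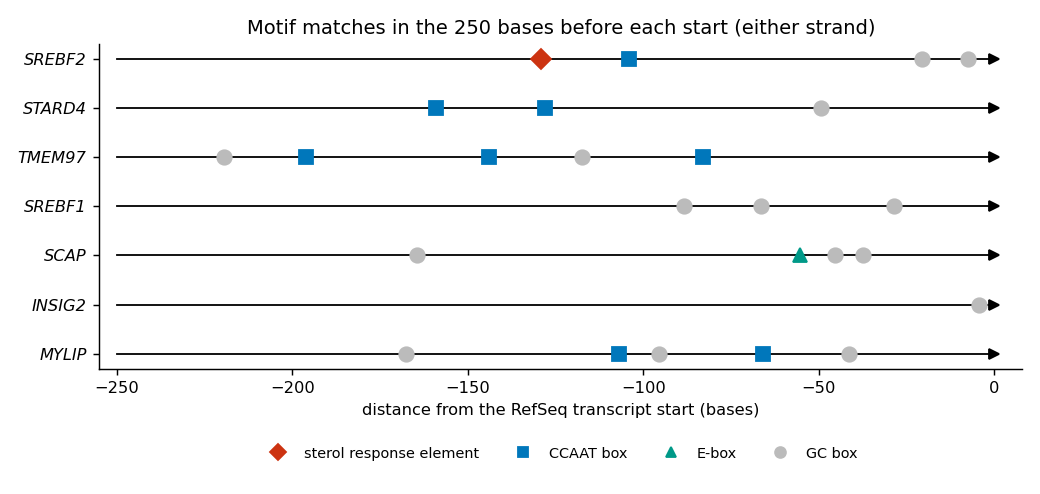
Motif matches on either strand in the 250 bases before the RefSeq transcript start of each gene, with distance from the start in bases on the x axis and 1 line per gene. The sterol response element appears only on the line of SREBF2, at 133 to 125 bases before the start, and CCAAT boxes lie on the lines of SREBF2, STARD4, TMEM97 and MYLIP. For INSIG2, the first of 2 listed starts is drawn.

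SREBF2, at chr22:41833105-41907306 on the plus strand, encodes SREBP-2, the factor that drives cholesterol synthesis and LDL receptor transcription. It was at 35.5, 36.3 and 35.2 FPKM with Gln added, at 22.8, 23.5 and 21.7 FPKM after 12 h of Gln deprivation and at 20.45, 19.9 and 19.99 FPKM after 24 h. Every deprived library lay below every library with Gln added, and every 24 h library lay below every 12 h library. The means were 35.7 ± 0.571 FPKM (SD, n = 3) with Gln added, 22.6 ± 0.905 FPKM after 12 h and 20.1 ± 0.301 FPKM after 24 h. On log2(FPKM + 0.1), SREBF2 fell by 0.65 (SE 0.0389) at 12 h, with an adjusted p of 2.15e-07 by limma's moderated test with Benjamini-Hochberg adjustment over 11880 genes. At 24 h it fell by 0.82 (adjusted p = 2.47e-08, limma), and the further decrease between 12 h and 24 h was 0.17 (adjusted p = 0.0123, limma). The values rest on 4829 to 9260 fragments per library.

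SREBF1, at chr17:17810399-17837002 on the minus strand, encodes SREBP-1, whose SREBP-1c form drives fatty acid synthesis in liver. Its libraries were at 13.3, 13.9 and 13.4 FPKM with Gln added, at 12.7, 12.7 and 11.7 FPKM at 12 h and at 12.7, 11.5 and 11.7 FPKM at 24 h. All deprived libraries were below those with Gln added, while the 12 h and 24 h ranges overlapped. The fall was small, 0.13 on the log2 scale at 12 h (SE 0.0509, adjusted p = 0.0425, limma) and 0.18 at 24 h (adjusted p = 0.0108, limma). The 12 h call was lost under 4 other settings, among them both other scalings of the libraries, for example with a log2 fold change of -0.10 and an adjusted p of 0.0940 by limma when FPKM were rescaled to the same total. It was also lost without any one of the libraries with Gln added, 12 h replicate 2 or 3, or 24 h replicate 3. Between 12 h and 24 h the log2 difference was -0.04, with a 95% confidence interval from -0.16 to 0.07. The table gives 1 value for the gene, so the SREBP-1a and SREBP-1c transcripts were not told apart.

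SREBF2 and SREBF1 thus changed unequally, which their ratio within a library shows independently of any scaling between libraries. The ratio of SREBF2 to SREBF1 was 2.66, 2.61 and 2.625 with Gln added, 1.79, 1.85 and 1.86 at 12 h and 1.615, 1.72 and 1.70 at 24 h. The 3 groups did not overlap. On the log2 scale the ratio was lower by 0.52 at 12 h and by 0.65 at 24 h than with Gln added, and by 0.13 at 24 h than at 12 h, each with p = 0.1 in a two-sided exact permutation test, the smallest p that 3 libraries against 3 can give.

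SCAP, at chr3:47413681-47477126 on the minus strand, encodes the sterol-sensing escort of both SREBP precursors. Its level was 21.6, 22.9 and 22.6 FPKM with Gln added, 25.9, 27.1 and 25.3 FPKM at 12 h and 27.2, 24.99 and 24.9 FPKM at 24 h. All 6 deprived libraries were above the 3 with Gln added, and the deprived groups overlapped each other. SCAP rose by 0.22 on the log2 scale at 12 h (SE 0.0473, adjusted p = 0.00211, limma) and by 0.20 at 24 h (adjusted p = 0.00373, limma), with ratios of means of 1.17 and 1.15. From 12 h to 24 h the log2 difference was -0.02, with an interval from -0.13 to 0.08.

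SREBF2 also fell relative to its escort. The ratio of SREBF2 to SCAP, chosen after the values had been seen, was 1.645, 1.58 and 1.555 with Gln added, 0.878, 0.867 and 0.856 at 12 h and 0.752, 0.796 and 0.804 at 24 h. In FPKM, SREBF2 was above SCAP in all 3 libraries with Gln added and below it in all 6 deprived libraries. The side of 1 depends on the gene lengths, which as recovered from the FPKM were 7302 bases for SREBF2 and 4789 for SCAP, against 8053 and 6288 exonic bases in GENCODE v44. With the exonic bases as length, an alternative chosen after seeing the data, the mean ratio was 1.90 with Gln added, 1.03 at 12 h (1.02 to 1.045 in the 3 libraries, so that SREBF2 was above SCAP) and 0.933 at 24 h. The difference between groups is the same with either length. The log2 ratio was lower by 0.88 at 12 h and by 1.02 at 24 h. At both times SREBF2 lay wholly below and SCAP wholly above the libraries with Gln added, so the ratios could not overlap. The exact permutation p of 0.1 was therefore fixed in advance and adds nothing to these values.

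INSIG2, at chr2:118088452-118110997 on the plus strand, encodes one of the anchors that hold SCAP in the endoplasmic reticulum. It was at 30.2, 27.3 and 29.4 FPKM with Gln added, at 30.2, 27.8 and 32.4 FPKM at 12 h and at 31.8, 32.1 and 35.8 FPKM at 24 h. The 12 h range covered most of the range with Gln added, and only the 24 h libraries were all above it. At 12 h the log2 fold change was 0.05, with an interval from -0.09 to 0.20 (adjusted p = 0.493, limma). At 24 h INSIG2 rose by 0.20 on the log2 scale (SE 0.0656, adjusted p = 0.0223, limma). That call was lost without 24 h replicate 3, the highest library, where the log2 fold change was 0.14 (adjusted p = 0.0930, limma), without replicate 2 of the libraries with Gln added, where it was 0.16 (adjusted p = 0.0890, limma), and with no filter on low values (adjusted p = 0.0540, limma). The 24 h against 12 h difference was 0.14, with an interval that just included 0 (adjusted p = 0.160, limma).

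MYLIP, at chr6:16129086-16148248 on the plus strand, encodes the ligase (also called IDOL) that marks the LDL receptor for degradation in the lysosome. It was the least abundant of the 7 genes, at 1.08, 1.26 and 1.15 FPKM with Gln added, at 1.34, 1.24 and 1.30 FPKM at 12 h and at 1.91, 1.97 and 1.44 FPKM at 24 h. The 12 h libraries overlapped those with Gln added, and the 24 h libraries were above all others, replicate 3 by the smallest margin. At 12 h the log2 fold change was 0.14, with an interval from -0.13 to 0.42 (adjusted p = 0.337, limma). At 24 h MYLIP rose by 0.56 (SE 0.124, adjusted p = 0.00236, limma), a ratio of means of 1.52. The values rest on 124 to 220 fragments per library, for which counting alone gives a coefficient of variation of 7.12% to 8.69%, beside 8.01%, 3.88% and 16.6% between the libraries of the 3 groups in turn.

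The rise of MYLIP from 12 h to 24 h was 0.41 on the log2 scale (adjusted p = 0.0398, limma). This call was lost without replicate 1 or 3 of the libraries with Gln added, any one of the 12 h libraries, or 24 h replicate 1 or 2. Without 24 h replicate 2 the log2 fold change was 0.33 (adjusted p = 0.127, limma). It was also lost with no filter, with median-ratio scaling and with only the groups compared.

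STARD4, at chr5:111496033-111512590 on the minus strand, fell more than any other gene of the set at 12 h. Its libraries were at 9.21, 8.33 and 9.35 FPKM with Gln added, at 2.57, 2.95 and 3.44 FPKM at 12 h and at 3.02, 3.85 and 3.32 FPKM at 24 h. All deprived libraries were below those with Gln added, and the deprived groups overlapped. The means were 8.96 ± 0.551, 2.99 ± 0.435 and 3.40 ± 0.421 FPKM (SD, n = 3), so that the level was 3.00-fold lower at 12 h and 2.64-fold lower at 24 h. STARD4 fell by 1.56 on the log2 scale at 12 h (SE 0.110, adjusted p = 7.82e-07, limma) and by 1.38 at 24 h (adjusted p = 1.37e-06, limma). From 12 h to 24 h the log2 difference was 0.18, with an interval from -0.06 to 0.43. STARD5, a close relative in the same family of sterol carriers, was below the filter on low values. It was at 0.602, 0.562 and 0.644 FPKM with Gln added, and between 0.267 and 0.329 FPKM in the 6 deprived libraries.

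TMEM97, at chr17:28319200-28328685 on the plus strand, was the most abundant gene of the set with Gln added. It was at 53.5, 49.4 and 51.4 FPKM there, at 21.7, 21.4 and 21.1 FPKM at 12 h and at 18.9, 18.9 and 18.8 FPKM at 24 h. The 3 groups were fully apart, in the order Gln added, 12 h, 24 h. TMEM97 fell by 1.26 on the log2 scale at 12 h (SE 0.0374, adjusted p = 1.37e-09, limma), by 1.44 at 24 h (adjusted p = 3.72e-10, limma) and by 0.18 between 12 h and 24 h (adjusted p = 0.00727, limma). The means were 2.40-fold lower at 12 h and 2.72-fold lower at 24 h. The coefficient of variation between the 24 h libraries was 0.218%, less than the 2.41% that counting alone gives at this depth. The test therefore rests on the spread that limma estimates with the other groups and genes.

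STARD4 and TMEM97 were further compared by their ratio within a library, also chosen after the values had been seen. With Gln added it was 0.174 ± 0.00685 (SD, n = 3), after 12 h 0.140 ± 0.0222 and after 24 h 0.180 ± 0.0220. At 12 h every library lay below those with Gln added, by 0.33 on the log2 scale, with an exact permutation p of 0.1. At 24 h the groups overlapped, with a log2 difference of 0.04 (exact permutation p = 0.8).

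**Figure D2:**
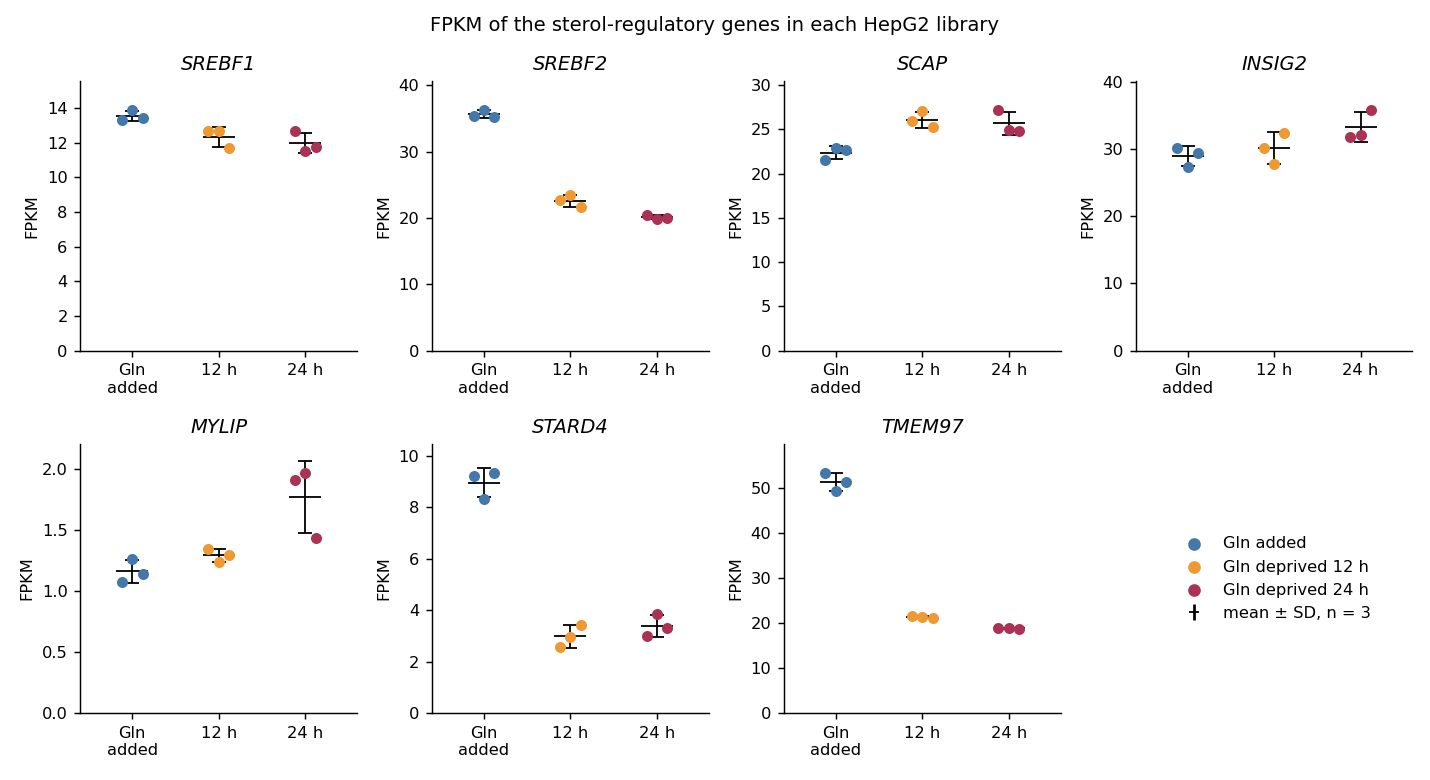
FPKM of each of the 7 genes in all 9 libraries, 1 panel per gene with its own y axis from 0, by group. Points are libraries and black bars are means ± SD of 3. SREBF2, STARD4 and TMEM97 drop to means of 22.6, 2.99 and 21.4 FPKM at 12 h, SCAP sits at 26.1 FPKM against 22.4 with Gln added, and MYLIP and INSIG2 are highest at 24 h.

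Taking the 7 genes as a set, 5 passed the test at 12 h, SCAP as the 1 that rose and SREBF1, SREBF2, STARD4 and TMEM97 as the 4 that fell, beside 60.2% of all genes tested (29.1% higher and 31% lower). For these 5 genes the 12 h libraries did not overlap those with Gln added, being above them for 1 gene, as for 32.8% of all genes, and below them for 4, as for 34.4%. At 24 h all 7 passed, with 3 higher (SCAP, INSIG2 and MYLIP) and 4 lower (the same 4 as at 12 h), beside 64.7% of all genes (33% higher and 31.7% lower). None of the 7 overlapped at 24 h, where 35.7% of all genes lay wholly above and 34.1% wholly below the libraries with Gln added. With shares this high, the counts alone do not set the 7 genes apart. STARD4 and TMEM97 were the 2 of 7 that passed with a log2 fold change under -1, which 1.94% of all genes did at 12 h and 2.83% at 24 h. The median absolute log2 fold change of all genes tested was 0.25 at 12 h and 0.28 at 24 h, so that the values of SREBF1, SCAP and INSIG2 were smaller than those of the median gene at both times. The median of the 7 signed values was -0.13 at 12 h and -0.18 at 24 h, beside -0.02 and 0.01 over all genes.

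Between 12 h and 24 h, 3 of the 7 genes passed, MYLIP higher and SREBF2 and TMEM97 lower, beside 20.1% of all genes tested (9.57% higher and 10.5% lower). All 3 libraries at 24 h were above all 3 at 12 h for MYLIP, as for 17.5% of genes, and below for SREBF2 and TMEM97, as for 16.9%.

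**Figure D3:**
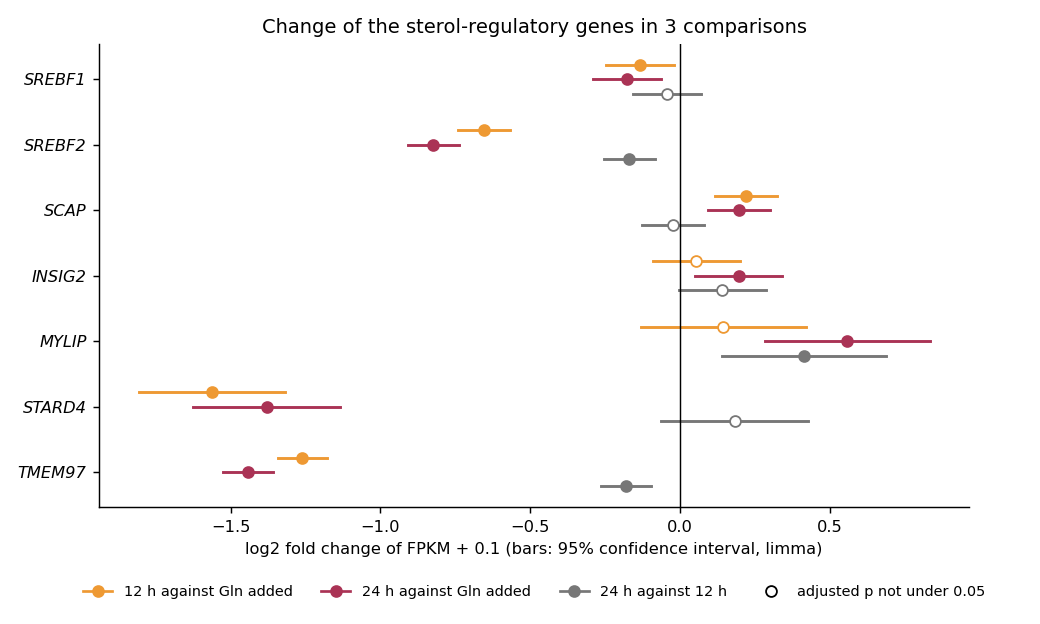
Log2 fold change of FPKM + 0.1 for each gene in the 3 comparisons, with 95% confidence intervals from limma. Filled points have an adjusted p under 0.05. Against Gln added, the intervals of SREBF1, SREBF2, STARD4 and TMEM97 lie wholly below 0 at both times, and those of SCAP wholly above it. Those of INSIG2 and MYLIP include 0 at 12 h and lie above it at 24 h. SREBF1 sits close to 0 with changes of -0.13 and -0.18.

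Gln deprivation also changed the order of the levels in FPKM. With Gln added it was TMEM97, SREBF2, INSIG2, SCAP, SREBF1, STARD4 and MYLIP, and no neighbours overlapped. At 12 h and at 24 h it was INSIG2, SCAP, SREBF2, TMEM97, SREBF1, STARD4 and MYLIP, with an overlap of neighbours only between SREBF2 and TMEM97 at 12 h. Parts of this order depend on the lengths in the table. STARD4 has 10140 bases there and SREBF1 has 5280, against 5684 and 8234 exonic bases in GENCODE v44. With exonic bases as length, STARD4 was above SREBF1 with Gln added, and its range overlapped that of SCAP. At 12 h SREBF2 then came before SCAP, with overlapping ranges, and the range of SCAP overlapped that of TMEM97. With either length TMEM97 was first with Gln added, INSIG2 was first at 12 h and 24 h, MYLIP was last in every group and the order at 24 h was the same.

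Across the 9 libraries, SREBF2 and TMEM97 had a Pearson correlation of 0.992 on log2(FPKM + 0.1), SREBF2 and STARD4 of 0.923 and STARD4 and TMEM97 of 0.958. SCAP ran against STARD4 with -0.932, and INSIG2 and SCAP had 0.204. These values describe 9 libraries that fall into 3 groups, so that they mostly reflect the differences between the groups. Out of 10868 genes averaging 1 FPKM or more, those most like SREBF2 were MCM3 (0.999), a subunit of the replication helicase, then KDM1A (0.999), a histone demethylase, and FSCN1 (0.999), an actin bundler. For TMEM97 they were MCM4 (0.999), PRDX6 (0.998) and ACAT2 (0.998), the last an enzyme of cholesterol synthesis. For STARD4 they were HSPA4L (0.997), PEG3 (0.996) and SNAP23 (0.996). For SREBF1 they were PPIL2, NCAPH2 and CST3 (0.974 to 0.975), for SCAP NGDN, KEAP1 and HECTD4 (0.980 to 0.994), for INSIG2 IFNAR1, MTURN and TBC1D23 (0.925 to 0.940), and for MYLIP LOC101928419, VAMP1 and C19orf54 (0.951 to 0.984).

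Some exons of these genes overlap genes on the opposite strand in GENCODE v44. The share of exonic bases was 6.75% for SREBF1 (with RAI1), 9.08% for SREBF2 (with SREBF2-AS1), 2.18% for STARD4 (with STARD4-AS1) and 12.3% for TMEM97 (with IFT20), and there was no overlap for SCAP, INSIG2 or MYLIP. SREBF2-AS1 and STARD4-AS1 were at no more than 0.341 FPKM in any library. RAI1 and IFT20 rose at both times. RAI1 rose by 0.53 and 0.55 log2 units (adjusted p = 9.80e-06 and 5.24e-06, limma), against the direction of SREBF1, which fell by 0.13 and 0.18. IFT20 rose by 0.36 and 0.62 log2 units (adjusted p = 0.0116 and 3.34e-04, limma), against the direction of TMEM97. Whether the counting used strand is not given in the sources used here, so reads in these stretches could not be assigned to one strand.

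Of 15 genes of LDL receptor handling in the cell, all tested, 5 rose and 6 fell at 12 h, and 4 rose and 6 fell at 24 h. These are 33.3% higher and 40.0% lower at 12 h and 26.7% and 40.0% at 24 h, beside 29.1% and 31% of all genes tested at 12 h and 33% and 31.7% at 24 h, so that the counts do not set the list apart. Their medians were -0.12 and -0.01 on the log2 scale, the latter 0.04 when FPKM were rescaled to the same total. COMMD1, a subunit of an endosomal recycling complex, fell by 0.55 and 0.37, and ANXA2, a membrane-binding annexin, by 0.36 and 0.47. USP8 and UBE2D3, a deubiquitinase and a ubiquitin-conjugating enzyme that work in receptor turnover, rose by 0.31 to 0.35 at both times. MYLIP rose at 24 h by 0.56, more than any of these 15 genes, whose highest log2 fold change was 0.35.

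The next lists hold genes that carry and cut SREBP and those that act with INSIG proteins. The first includes general genes of the COPII vesicle coat, such as SEC13, SEC31A and SEC23A, which are not particular to SREBP. Of 17 genes for SREBP transport and cleavage, 2 rose and 10 fell at 12 h, and 1 rose and 8 fell at 24 h, with medians of -0.25 and -0.11. The share that fell was 58.8% at 12 h and 47.1% at 24 h, beside 31% and 31.7% of all genes, and the share that rose was 11.8% and 5.88%, beside 29.1% and 33%. SEC24D, which selects cargo for COPII vesicles, fell by 0.83 at 12 h and 0.43 at 24 h, and PGRMC1, a haem-binding membrane protein, fell by 0.43 and 0.52. MBTPS1, the site-1 protease that makes the first cut in SREBP, rose by 0.43 at 12 h (adjusted p = 3.42e-06, limma) and 0.57 at 24 h, whereas MBTPS2, the site-2 protease, had log2 fold changes of 0.02 and 0.05 (adjusted p = 0.734 and 0.464, limma). SEC24B rose by 0.23 at 12 h and had 0.14 at 24 h (adjusted p = 0.0558, limma). Of 12 genes for the sterol-regulated ubiquitination in which INSIG proteins take part, 4 rose and 2 fell at 12 h, and 6 rose and 2 fell at 24 h, with medians of 0.08 and 0.12. The shares were 33.3% higher and 16.7% lower at 12 h, beside 29.1% and 31% of all genes. At 24 h they were 50% and 16.7%, beside 33% and 31.7%. The 6 of 12 called at 12 h were fewer than the 60.2% of all genes. At 24 h, 4 of the 12 were not called, where 64.7% of all genes were called. AUP1 rose by 0.46 and 0.39 and FAF2, an adaptor that recruits VCP, by 0.38 and 0.37, while UFD1 fell by 0.72 and 0.65 and VCP, the ATPase that pulls proteins from the membrane, by 0.27 and 0.31.

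In both lists of SREBP targets examined, more genes fell than rose. All 20 genes of cholesterol synthesis fell at both times, with medians of -1.71 and -1.69, the largest falls being those of MVD (2.31 and 2.21) and LSS (2.19 and 2.16), where 31% and 31.7% of all genes fell. Of 14 lipogenic targets of SREBP-1, 12 were tested, of which 2 rose and 10 fell at 12 h and 1 rose and 9 fell at 24 h. The share that fell was 83.3% at 12 h and 75% at 24 h, beside 31% and 31.7% of all genes. The share that rose was 16.7% and 8.33%, beside 29.1% and 33%. The medians of the lipogenic targets were -0.77 and -0.79. FADS2, a fatty acid desaturase, fell by 1.37 and 1.88 and ACSS2, which makes acetyl-CoA, by 1.32 and 1.43, while GPAM, the first enzyme of triglyceride synthesis, rose by 0.36 and 0.24 and MID1IP1 rose by 0.34 at 12 h. The fall of SREBF1 itself, by 0.13 and 0.18, was much smaller than these medians.

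The LXR genes and their targets other than MYLIP changed in both directions. NR1H2, which encodes LXR beta, had log2 fold changes of 0.16 and 0.10 (adjusted p = 0.125 and 0.310, limma), and NR1H3, which encodes LXR alpha, had 0.07 at 12 h (adjusted p = 0.332, limma) and rose by 0.14 at 24 h (adjusted p = 0.0435, limma), a call lost with no filter, median-ratio scaling or limma-voom, and without replicate 1 or 3 of the libraries with Gln added or any one of the 24 h libraries. Of the 10 genes of LXR and its targets outside the set, 9 were in the table, of which 1 rose and 4 fell at 12 h and 3 rose and 5 fell at 24 h. Of the 9 genes, 11.1% were higher and 44.4% lower at 12 h and 33.3% and 55.6% at 24 h, beside 29.1% and 31% of all genes at 12 h and 33% and 31.7% at 24 h. Their medians were -0.02 and -0.18, the former 0.01 when FPKM were rescaled to the same total. The partners ABCG5 and ABCG8, which together export sterols, differed in sign at 24 h, where ABCG5 rose by 0.24 and ABCG8 fell by 0.83. SMPDL3A rose by 0.51 and 0.68, and PLTP, a phospholipid carrier, fell by 0.36 and 0.57.

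Among 21 genes of sterol transport, 16 were tested, of which 5 rose and 7 fell at 12 h and 6 rose and 7 fell at 24 h, with medians of -0.09 and -0.05. The 31.2% and 37.5% that rose are close to the 29.1% and 33% of all genes, and the 43.8% that fell at both times stand beside 31% and 31.7%. STAR, the mitochondrial relative of STARD4, fell by 1.09 and 1.08, from 2.97 ± 0.303 FPKM with Gln added to 1.34 ± 0.0586 FPKM at 12 h (SD, n = 3), and LIPA, the lysosomal lipase that frees cholesterol from LDL, fell by 0.69 at both times. NPC1, which moves cholesterol out of the lysosome, rose by 0.35 and 0.41 (adjusted p = 1.80e-05 and 3.27e-06, limma), as did GRAMD1A by 0.65 and 0.72 and OSBPL2 by 0.44 and 0.55. Of 14 nuclear partners of SREBP, 7 rose and 2 fell at both times, with medians of 0.18 and 0.15. These are 50% higher and 14.3% lower, beside 29.1% and 31% of all genes at 12 h and 33% and 31.7% at 24 h. The coactivator CREBBP rose by 1.00 and 0.98 and the deacetylase SIRT1 by 0.71 and 0.87, while NFYA, a subunit of the factor that binds CCAAT boxes, fell by 0.22 and 0.44. LPIN1 fell by 0.43 at 12 h and had -0.04 at 24 h (adjusted p = 0.518, limma).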

How the data were processed

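RNA-seq of 9 HepG2 libraries was used. Per the study's methods, reads were aligned to GRCh38 with STAR and differential expression was tested with DESeq2 by the authors. Per the labels, HTSeq and R 3.2.0 were also among the tools. The annotation and the strand setting of the counting are not given in the sources used here, and the methods and the labels name different library kits, so that strandedness is unsure. The values deposited by the authors were FPKM of each gene in each library, with no other scaling stated, and no count table was used here. FPKM values were whole multiples of a step per gene and library, which gave fragment numbers that were whole within a tolerance of 0.02 fragments for 100% of the 22587 genes.

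The 11880 genes averaging 0.5 FPKM or more were tested with limma 3.58.1 in R 4.3.3 (lmFit, eBayes with a trend) on log2(FPKM + 0.1), the 3 groups in 1 fit, with Benjamini-Hochberg adjustment and a threshold of 0.05. Changes of genes with levels near the pseudocount are understated on this scale. All 7 genes passed the filter. Ratios of 2 genes within a library were compared by two-sided exact permutation tests. A ratio of INSIG1 to INSIG2 had been planned and could not be made. The scripts were tested on simulated data. All replicate pairs differed by more than sampling noise.

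The genes and the pathway lists were chosen with earlier results of these data known, and some genes of the lists are not reported here. From each list, up to 2 genes with the largest average rise and 2 with the largest average fall over both times were named, among those with an adjusted p under 0.05 at either time and a mean of 1 FPKM or more, and MBTPS1, MBTPS2, NR1H2, NR1H3, NPC1 and STARD5 were named for their role. For each gene the 3 most like it by Pearson correlation were named. The alternatives tried were limma-voom on the recovered fragments, each library left out, the replicate number as a block, only the groups compared in the fit, no trend in eBayes, other pseudocounts (0.01 and 1), other filters (none, or a mean of 1 FPKM), median-ratio scaling and FPKM rescaled to one total. Exonic bases of GENCODE v44 as gene length were added after seeing the data. Positions and overlaps are from GENCODE v44 on GRCh38, and promoter stretches from RefSeq on GRCh38.p14. Plots used Python 3.11.15 with matplotlib 3.10.9.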

Additional observations from a re-analysis of the deposited data

Results flagged for a closer look

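For 3 of the 7 genes the change against Gln added differed between the times, as tested by the 24 h against 12 h term of the same limma fit. That term passed for 20.1% of all genes tested. The log2 difference was -0.17 for SREBF2 and -0.18 for TMEM97, both lower at 24 h in all 3 libraries, and 0.41 for MYLIP, higher at 24 h in all 3 libraries. The call of MYLIP (adjusted p = 0.0398, limma) was lost under several alternatives, as given above. Both changes against Gln added rest on the same 3 libraries with Gln added. These drop out of the difference but enter the spread by which it was tested.

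The same term passed for 9 named genes of the lists, where 20.1% of all genes tested passed it. These genes had been named for their average change against Gln added in the same data, so the count does not set them apart. The log2 difference was 0.39 for SEC24D, 0.39 for LPIN1, 0.26 for ABCG5 and 0.14 for MBTPS1. It was -0.51 for FADS2, -0.27 for MID1IP1, -0.22 for NFYA, -0.205 for PLTP and -0.13 for GPAM. The calls of MBTPS1 and GPAM were lost with only the groups compared and without 12 h replicate 1 or 2, that of MBTPS1 also with median-ratio scaling and without 24 h replicate 2, and that of GPAM also without a trend.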

How the results depend on the processing

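Of 3387 values computed under the alternatives for 183 results, none with a test changed direction past the threshold, 40 lost it and 10 gained it. For the 7 genes, 376 of 399 values kept their direction and side of the threshold, and the other 23 concern SREBF1 at 12 h, INSIG2 at 24 h and MYLIP between the times. SREBF1 at 12 h was -0.13 with no filter or without a trend, -0.10 with rescaled FPKM and -0.11 with median-ratio scaling, all with an adjusted p over 0.05, and -0.15 to -0.094 with 1 library left out. INSIG2 at 24 h was 0.20 with no filter (adjusted p = 0.0540, limma) and 0.14 to 0.23 with 1 library left out. MYLIP at 24 h against 12 h was 0.41 with no filter or with only the groups compared, 0.38 with median-ratio scaling and 0.33 to 0.55 with 1 library left out. The cause was not tested. With exonic bases as gene length, an alternative chosen after seeing the data, the log2 ratio of SREBF2 to SCAP changed sign at 12 h, from -0.21 to 0.046, and was 0.92 with Gln added (0.67 in FPKM) and -0.10 at 24 h (-0.35 in FPKM).

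Correlations of the deviations of same-numbered libraries ran from -0.0329 to 0.0622 against Gln added and from -0.136 to 0.283 between the times. For differently numbered libraries they ran from -0.091 to 0.075 against Gln added and from -0.467 to 0.296 between the times. Whether replicate numbers pair the libraries was not tested. With the replicate number as a block, all genes called were 7341 at 12 h, 7802 at 24 h and 2586 between the times, against 7147, 7686 and 2386, and no call of the 7 genes changed. Between the times, 4 of 20 genes of cholesterol synthesis were called, beside 20.1% of all genes tested, but 7 with the block and 7 with limma-voom. All genes called between the times were 2640 with limma-voom. With only the groups compared, genes called were 4 of 17 for SREBP transport (7 otherwise) and 3 of 14 for nuclear partners (5 otherwise). Leaving out 1 library gave 4 to 9 of 17 for SREBP transport, 3 to 7 of 20 for cholesterol synthesis and 1 to 4 of 16 for sterol transport. It gave 3 to 5 of 14 for nuclear partners, 2 to 4 of 15 for LDL receptor handling and 1 to 2 of 12 for ubiquitination. Of 456 list medians, 59 moved by more than the spread between libraries. Of the genes called between the times, 47.7% were higher, but 33.4% with median-ratio scaling and 54.3% with rescaled FPKM. MYLIP, with 124 to 220 fragments, was the most limited by depth.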
